A study of Mus musculus with 6 samples.

Results

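The genes that encode the chains of the collagens were examined in the quadriceps, a thigh muscle, of 10-day-old mouse pups. Members were the protein-coding genes whose symbol is Col, a number, the letter a and a number, and 44 of the 54532 genes in the count table met this rule. Of the 44, 41 had enough counts to be tested among 14715 tested genes. Col9a1, Col6a4 and Col10a1 were not tested, since no library held more than 7 counts for any of them.

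Bulk RNA sequencing compared 3 control libraries with 3 Myf5Cre-Pcyt2 libraries. Control pups were Pcyt2 flox/flox. Myf5Cre-Pcyt2 pups carried the same floxed Pcyt2 alleles together with a Cre recombinase named for Myf5, a gene that is switched on in muscle precursor cells. Pcyt2 encodes an enzyme of phosphatidylethanolamine synthesis. All pups were kept on chow, and the labels do not say that the controls carried Cre, so an effect of Cre or of the Myf5 allele cannot be told apart from that of the Pcyt2 deletion.

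Collagens are built from 3 chains wound into a triple helix. Fibrillar collagens form the cables that carry tension in endomysium, fascia and tendon, network-forming type IV collagen makes the sheet of the basement membrane around each muscle fibre and capillary, and type VI collagen forms beaded filaments that link the basement membrane to the matrix. FACIT collagens (fibril-associated, with interrupted triple helices) sit on the surface of fibrils, and transmembrane collagens span the cell membrane, where some of them act at synapses. In muscle most fibrillar collagen is made by fibroblasts, whereas muscle fibres and nerve contribute chains of the basement membrane and of the junctions with tendon and nerve.

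Library totals lay between 17775898 and 20446920 counts. Levels are in CPM, which relates a gene's counts to the library total after TMM scaling, and are listed in the order of replicates 1, 2 and 3, and a gene was called when its adjusted p from edgeR's quasi-likelihood test was under 0.05. Pcyt2 itself was at 18.7, 16.1 and 16.0 CPM in control replicates 1 to 3 and at 14.9, 14.3 and 12.6 CPM in Myf5Cre-Pcyt2 replicates 1 to 3 (log2 fold change -0.28, SE 0.11, adjusted p = 0.0944). Its ranges did not overlap, although the difference did not pass. The labels do not give the floxed exons, and counts over a whole gene in whole muscle include reads from cells without Cre. The tissue label was borne out by Acta1 and Ckm, the actin and creatine kinase of skeletal muscle, which reached at least 31106 and 9828 CPM in every library. Replicate 3 of each group was male by Xist and Y-linked counts and the others female.

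Many collagen chain genes were higher in Myf5Cre-Pcyt2 muscle, and none was called lower. Among the 41 genes, 23 rose, 0 fell and 18 missed the threshold. Over all tested genes, 18.6% changed, 9.02% upwards and 9.59% downwards, so 56.1% of the collagen genes rose where 9.02% of all genes did. The median log2 fold change over the 41 genes was 0.47, against -0.0020 over all tested genes, and 37 of the 41 values were positive. In 31 collagen genes all 3 Myf5Cre-Pcyt2 libraries lay above all 3 controls, a pattern seen in 19.9% of all tested genes, and in none did they lie below, against 19.2%. The rises were moderate, since the largest, in Col25a1, was 2.44-fold. Summed over the 44 genes, collagens took 2.02%, 1.68% and 1.52% of the counts in the control libraries and 2.31%, 2.86% and 2.69% in the Myf5Cre-Pcyt2 libraries. The means were 1.74% ± 0.254 and 2.62% ± 0.281 (SD, n = 3), and the groups did not overlap (exact permutation test, two-sided, p = 0.1, the smallest that 3 against 3 libraries allows). Relative to TMM-scaled totals the difference was 0.556 rather than 0.880 percentage points. Control replicate 3 was the lowest control for 31 of the 41 tested collagen genes.

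**Figure D1:**
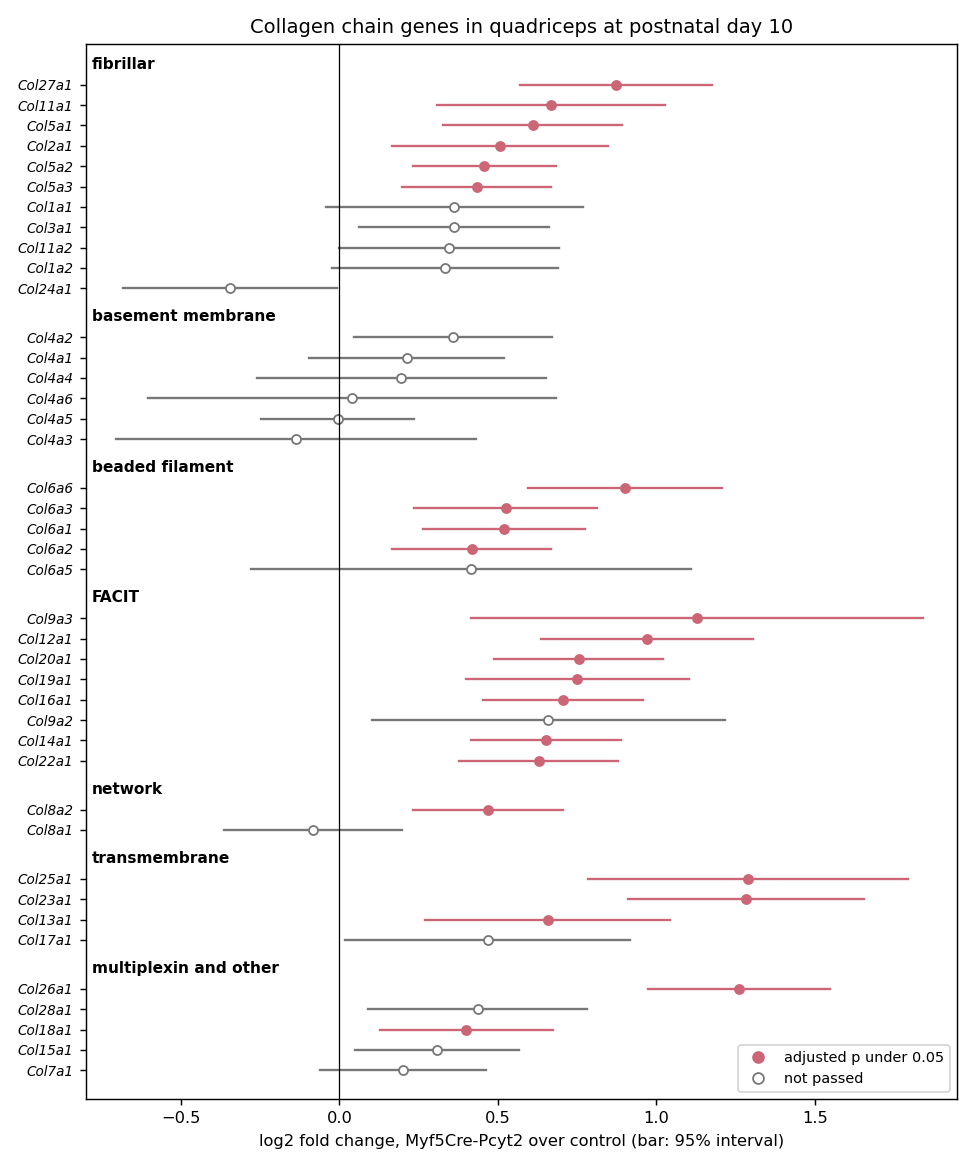
Log2 fold change of each of the 41 tested collagen chain genes, Myf5Cre-Pcyt2 over control (n = 3 each), by family. Points are estimates, bars are 95% intervals and filled points are the 23 genes with an adjusted p under 0.05. None of the 6 basement membrane chains is filled, and 7 of 8 FACIT chains are.

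The fibrillar family gave 6 rises among 11 tested genes, with a median of 0.43. The chains with the highest control levels per kilobase of summed exon length, Col1a1 (738 CPM per kb), Col3a1 (434) and Col1a2 (318), did not pass. Col1a1 and Col1a2 together make type I collagen, the main collagen of tendon and endomysium. Col1a1 was at 5691, 5222 and 3623 CPM in controls and 5648, 6677 and 6369.6 CPM in Myf5Cre-Pcyt2 (log2 fold change 0.36, SE 0.18, adjusted p = 0.184, 95% interval -0.041 to 0.77). Col1a2 was at 4267, 4414 and 3160.4 CPM in controls and 4590.4, 4991 and 5344 CPM in Myf5Cre-Pcyt2 (log2 fold change 0.33, SE 0.16, adjusted p = 0.168, 95% interval -0.022 to 0.69). Control replicate 3 was the lowest library for both, and the 2 groups overlapped for Col1a1 but not for Col1a2. Col3a1, the chain of the fine type III fibrils of soft tissue, was at 4558, 4158 and 4054 CPM in controls and 5113, 5736 and 5573 CPM in Myf5Cre-Pcyt2 (log2 fold change 0.36, SE 0.14, adjusted p = 0.0858). All Myf5Cre-Pcyt2 libraries exceeded all controls for Col3a1, but the difference did not pass in edgeR. DESeq2 called 8 fibrillar rises, adding Col3a1 (adjusted p = 0.0018) and Col1a2 (0.0459) but not Col1a1 (0.0544). Scaled by library size alone, all 3 passed in edgeR (adjusted p from 0.0077 to 0.0212).

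Type V and type XI collagens sit inside the larger fibrils and set their diameter. All 3 type V chains rose. Col5a1 was at 485, 404 and 366 CPM in controls and 592, 717 and 605 CPM in Myf5Cre-Pcyt2 (log2 fold change 0.61, SE 0.13, adjusted p = 0.0113). Col5a2, a neighbour of Col3a1 on chromosome 1, was at 319, 300.4 and 274 CPM in controls and 374, 435 and 418 CPM in Myf5Cre-Pcyt2 (log2 fold change 0.46, SE 0.10, adjusted p = 0.0142). Col5a3 was at 162, 153 and 129.6 CPM in controls and 186, 217 and 198 CPM in Myf5Cre-Pcyt2 (log2 fold change 0.43, SE 0.11, adjusted p = 0.0197). In each of the type V chains the lowest Myf5Cre-Pcyt2 library exceeded the highest control, and control replicate 1 was the highest control. Col11a1 was at 56.9, 56.8 and 35.7 CPM in controls and 69.7, 78.9 and 88.5 CPM in Myf5Cre-Pcyt2 (log2 fold change 0.67, SE 0.16, adjusted p = 0.0196). Its partner Col11a2 had a log2 fold change of 0.34 (adjusted p = 0.147) and did not pass, although it did without a filter on low counts (0.0118) and with library size alone (0.0197).

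Rises were also found in fibrillar chains best known from cartilage. Col27a1 was at 12.4, 8.82 and 8.92 CPM in controls and 17.9, 19.6 and 17.8 CPM in Myf5Cre-Pcyt2 (log2 fold change 0.87, SE 0.14, adjusted p = 0.00414). Col2a1, the main chain of cartilage fibrils, was at 27.7, 31.1 and 19.9 CPM in controls and 32.9, 35.9 and 43.0 CPM in Myf5Cre-Pcyt2 (log2 fold change 0.51, SE 0.15, adjusted p = 0.0442). Both were separated between the groups. Col24a1 was the fibrillar chain with a negative value, -0.34 (adjusted p = 0.136), and its ranges overlapped. Leaving out control replicate 3 gave Col24a1 an adjusted p under 0.05, as did testing without a filter on low counts. The call of Col2a1 was lost without control replicate 1, without control replicate 3, and with sex as a covariate. Without Myf5Cre-Pcyt2 replicate 2 the fibrillar rises numbered 1, Col27a1, and without Myf5Cre-Pcyt2 replicate 3 they numbered 2, Col27a1 and Col5a1.

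The windows before the RefSeq start of 3 chains are given here, so that a transmembrane chain with a large rise (Col23a1), a type V chain that rose (Col5a1) and an abundant fibrillar chain that did not pass (Col3a1) can be read side by side. Each is the 250 bases upstream of the start, 5′ to 3′ on the gene's strand, from RefSeq on GRCm38.p6. Capitals mark matches on either strand to 4 motifs. The first was TATAAA, a box bound by the general transcription machinery. The second was CCAAT, which is bound by the factor NF-Y. The third was GGGCGG, the core of a GC box, which reads CCGCCC on the opposite strand. The last motif was CAGACA, a core bound by SMAD proteins, which reads TGTCTG on the opposite strand. No motif letters overlapped in these windows.
Col23a1, chr11:51289670-51289919, plus strand: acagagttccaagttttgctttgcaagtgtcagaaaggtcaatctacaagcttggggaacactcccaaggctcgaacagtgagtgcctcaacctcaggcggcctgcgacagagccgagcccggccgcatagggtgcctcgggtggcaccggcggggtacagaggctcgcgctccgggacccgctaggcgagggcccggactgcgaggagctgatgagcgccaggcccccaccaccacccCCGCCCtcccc
Col5a1, chr2:27886175-27886424, plus strand: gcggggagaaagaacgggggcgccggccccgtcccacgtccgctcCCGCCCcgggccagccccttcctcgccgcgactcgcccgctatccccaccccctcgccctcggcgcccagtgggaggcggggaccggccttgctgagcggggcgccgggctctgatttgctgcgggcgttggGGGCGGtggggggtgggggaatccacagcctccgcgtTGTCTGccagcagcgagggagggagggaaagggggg
Col3a1, chr1:45311288-45311537, plus strand: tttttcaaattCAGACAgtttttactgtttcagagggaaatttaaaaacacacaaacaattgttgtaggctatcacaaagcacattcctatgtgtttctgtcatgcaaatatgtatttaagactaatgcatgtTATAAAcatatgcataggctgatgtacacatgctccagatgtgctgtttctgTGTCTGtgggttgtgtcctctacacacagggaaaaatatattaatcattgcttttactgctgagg
The Col23a1 window held 18 CpG dinucleotides and 66.0% G and C, and its single match began at -11 from the start. The Col5a1 window held 28 CpG and 76.4% G and C, with matches at -205, -73 and -36. The Col3a1 window held 0 CpG and 35.2% G and C, with a TATAAA at -117 and CAGACA matches at -239 and -65. The Col3a1 window thus differed from the other 2 in base composition as well as in its motifs. It does not stand for the chains that did not pass. Of those, Col1a2, Col4a1 and Col4a2 had windows with 62.0%, 74.4% and 73.6% G and C. The median was 62.2% in windows of genes that rose and 57.8% in windows of genes that did not pass.

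RefSeq windows were found for 35 of the 44 genes (38 windows), 16 of which rose. GGGCGG occurred in 57.9% of collagen windows and in 32.7% of all 32851 windows. It was in 12 of 18 windows (66.7%) of the genes that rose and in 9 of 16 (56.2%) of those that did not pass. TATAAA occurred in 13.2% of collagen windows and 12.4% of all, and CCAAT in 34.2% and 33.8%. CAGACA occurred in 23.7% of collagen windows and 17.1% of all. Its matches lay in 3 of 18 windows (16.7%) of genes that rose and in 6 of 16 (37.5%) of genes that did not pass. Collagen windows were richer in G and C, with a median of 59.0% against 52.4%, and GGGCGG is itself made of G and C. Matches are descriptions of letters and were not tested.

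Type IV collagen, the network of the basement membrane, showed no rise that passed in edgeR with TMM scaling and the filter on low counts. Col4a1 and Col4a2, which form the type IV trimer found in nearly all basement membranes, are the abundant pair. Col4a1 was at 1574, 1554 and 1149 CPM in controls and 1599, 1714 and 1641 CPM in Myf5Cre-Pcyt2 (log2 fold change 0.21, SE 0.14, adjusted p = 0.305, 95% interval -0.10 to 0.52). Col4a2 was at 939.6, 881 and 651 CPM in controls and 1019, 1128 and 1023 CPM in Myf5Cre-Pcyt2 (log2 fold change 0.36, SE 0.14, adjusted p = 0.0998, 95% interval 0.046 to 0.67). Every Myf5Cre-Pcyt2 library lay above every control for both genes, with control replicate 3 the lowest by a wide margin, and neither passed. Col4a2 did pass with DESeq2 (adjusted p = 0.0316), without a filter on low counts (0.0258 in edgeR) and with library size alone (0.012), under which Col4a1 passed too (0.0267). These 2 genes lie head to head on chromosome 8 and overlap by a few bases, and no source names the strand setting of the counting.

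The 4 minor type IV chains had at most 2.66 CPM per kb in controls, against 191 for Col4a1, and did not separate. Col4a5 was at 19.4, 18.3 and 16.0 CPM in controls and 16.1, 17.9 and 19.5 CPM in Myf5Cre-Pcyt2 (log2 fold change -0.0051, SE 0.11, adjusted p = 0.979). Col4a6, its neighbour on the X chromosome, was at 1.54, 1.33 and 0.753 CPM in controls and 1.17, 1.22 and 1.34 CPM in Myf5Cre-Pcyt2 (log2 fold change 0.04, SE 0.29, adjusted p = 0.938). These chains are found in selected basement membranes. Col4a3 was at 2.38, 3.02 and 2.09 CPM in controls and 2.83, 1.57 and 2.45 CPM in Myf5Cre-Pcyt2 (log2 fold change -0.14, SE 0.26, adjusted p = 0.743). Col4a4 was at 4.82, 3.48 and 3.24 CPM in controls and 3.95, 4.02 and 5.27 CPM in Myf5Cre-Pcyt2 (log2 fold change 0.19, SE 0.21, adjusted p = 0.538). All 4 ranges overlapped. The sign of Col4a3 and of Col4a5 turned positive when libraries were scaled by library size alone, and that of Col4a6 turned negative with an offset for GC content and length. The family median was 0.12, with 2 of 6 genes separated between the groups.

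Type VI collagen, the beaded filament that anchors the muscle fibre's basement membrane to the surrounding matrix and whose loss causes muscular dystrophy in people, rose in 4 of 5 tested chains. Col6a1 was at 489, 451 and 376 CPM in controls and 599.6, 667 and 621 CPM in Myf5Cre-Pcyt2 (log2 fold change 0.52, SE 0.12, adjusted p = 0.0143). Col6a2 was at 479.9, 489 and 395 CPM in controls and 571, 652 and 598 CPM in Myf5Cre-Pcyt2 (log2 fold change 0.42, SE 0.11, adjusted p = 0.0291). Col6a3 was at 403, 377 and 294 CPM in controls and 467, 568 and 510.0 CPM in Myf5Cre-Pcyt2 (log2 fold change 0.52, SE 0.13, adjusted p = 0.0212). These are the 3 chains of the main type VI trimer, their log2 fold changes lay between 0.42 and 0.52, and in each the groups did not overlap. Col6a6, which can take the place of Col6a3 in the trimer, rose the most of this family, from 73.9 ± 15.5 to 138 ± 13.6 CPM (SD, n = 3). It was at 91.6, 62.8 and 67.3 CPM in controls and 127, 153 and 135 CPM in Myf5Cre-Pcyt2 (log2 fold change 0.90, SE 0.14, adjusted p = 0.0039). The lowest Myf5Cre-Pcyt2 library was well above the highest control. Col6a5, a low chain of the same gene cluster on chromosome 9, was at 1.69, 2.03 and 1.27 CPM in controls and 1.92, 3.23 and 1.48 CPM in Myf5Cre-Pcyt2 (log2 fold change 0.41, SE 0.31, adjusted p = 0.377), and its ranges overlapped. Col6a4, also in that cluster, had between 0 and 3 counts per library. Without Myf5Cre-Pcyt2 replicate 2, and likewise without replicate 3, Col6a6 alone of this family passed, and without control replicate 3 Col6a1 and Col6a6 passed.

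The FACIT collagens rose together, with 7 of 8 tested genes called, all 8 separated between the groups and a family median of 0.73. Col12a1 (chr9:79598991-79718831 in GENCODE M21 on GRCm38), whose product sits on type I fibrils in tendon and fascia and whose mutation causes a myopathy with loose joints, was at 113, 105 and 82.1 CPM in controls and 156, 225 and 208 CPM in Myf5Cre-Pcyt2 (log2 fold change 0.97, SE 0.15, adjusted p = 0.00404). Col14a1, a related fibril-surface chain, was at 149, 125 and 121 CPM in controls and 187, 221 and 213 CPM in Myf5Cre-Pcyt2 (log2 fold change 0.65, SE 0.11, adjusted p = 0.00459). Col22a1, the collagen of the myotendinous junction, where fibres attach to tendon, was at 81.0, 80.6 and 65.3 CPM in controls and 103, 119.7 and 128 CPM in Myf5Cre-Pcyt2 (log2 fold change 0.63, SE 0.11, adjusted p = 0.00615). For these 3 the Myf5Cre-Pcyt2 libraries formed a separate, higher group, and control replicate 3 was the lowest library. Myf5Cre-Pcyt2 replicate 1 was the lowest of its group in all 3.

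The other FACIT chains moved in the same direction. Col16a1, which joins fibrils to cells and to other matrix, was at 76.8, 69.5 and 60.3 CPM in controls and 98.6, 125 and 114 CPM in Myf5Cre-Pcyt2 (log2 fold change 0.71, SE 0.11, adjusted p = 0.00447). Col20a1 was at 10.4, 11.4 and 9.44 CPM in controls and 15.3, 19.3 and 18.0 CPM in Myf5Cre-Pcyt2 (log2 fold change 0.75, SE 0.12, adjusted p = 0.00417). Col19a1, a chain of basement membrane zones, was at 4.23, 4.87 and 5.56 CPM in controls and 7.53, 7.77 and 9.33 CPM in Myf5Cre-Pcyt2 (log2 fold change 0.75, SE 0.16, adjusted p = 0.0117). All 3 were separated. In contrast to the chains above, Col19a1 was highest among controls in replicate 3. Col9a3, a chain of the type IX collagen that coats cartilage fibrils, was at 1.22, 0.522 and 0.637 CPM in controls and 1.98, 1.83 and 1.48 CPM in Myf5Cre-Pcyt2 (log2 fold change 1.13, SE 0.32, adjusted p = 0.035). Its partner Col9a2 ranged from 1.04 to 1.48 CPM in controls and from 1.62 to 2.36 CPM in Myf5Cre-Pcyt2 (log2 fold change 0.66, SE 0.25, adjusted p = 0.0905), and Col9a1 had between 2 and 7 counts per library. The call of Col9a3 was lost when control replicate 2, control replicate 3 or any one of the Myf5Cre-Pcyt2 libraries was left out, and that of Col19a1 without Myf5Cre-Pcyt2 replicate 3. The other 5 FACIT calls held without any one library.

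**Figure D2:**
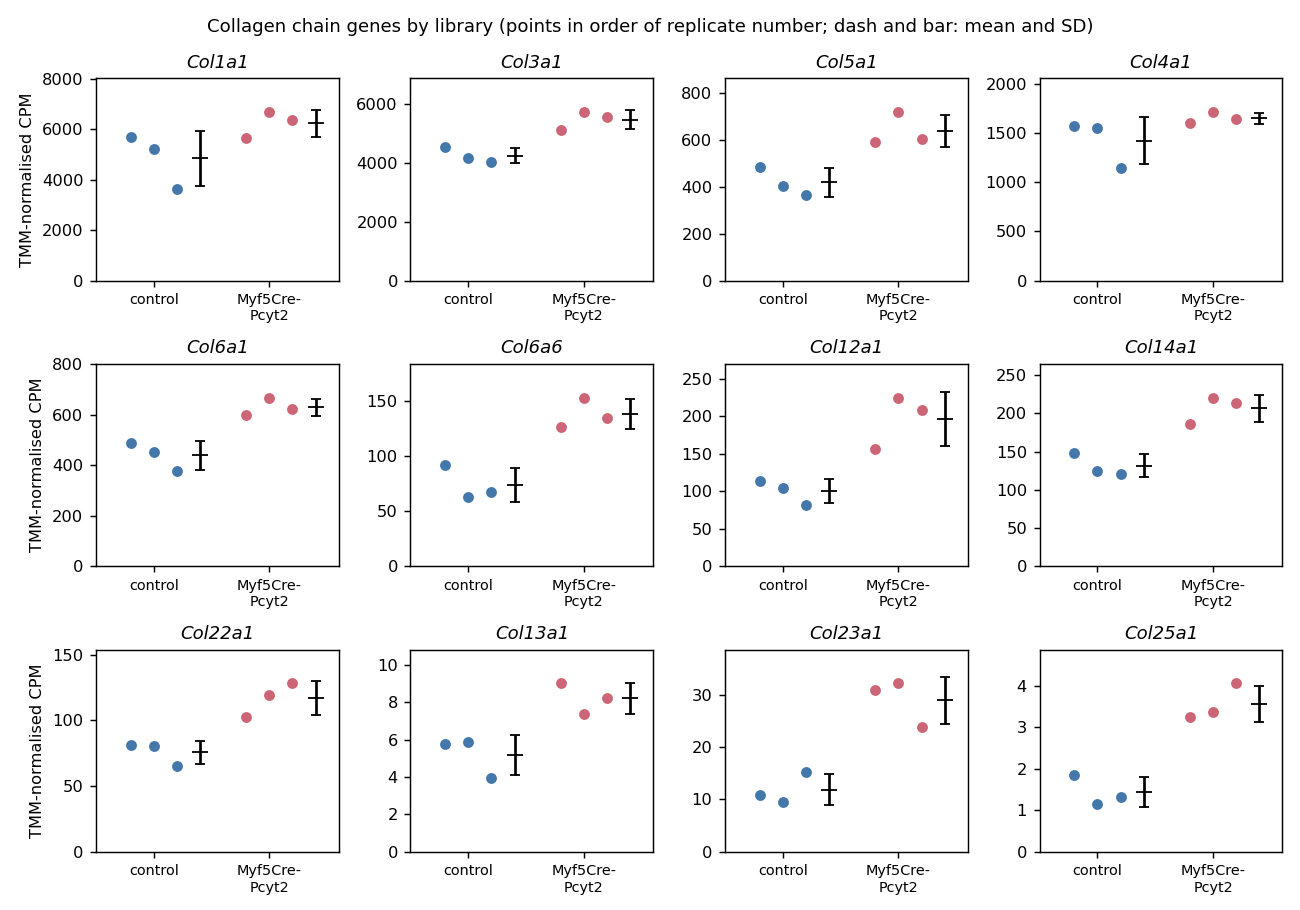
TMM-normalised CPM of 12 collagen chain genes in each library, with the mean and SD (n = 3) beside the points, on linear axes that start at 0. The groups overlap for Col1a1 only, and control replicate 3 is the lowest control in 9 of the 12 panels.

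The transmembrane collagens held the largest family median, 0.97, with 3 of 4 genes called. Col23a1 (chr11:51289920-51583918, same build), a transmembrane chain that binds integrins, was at 10.9, 9.57 and 15.2 CPM in controls and 30.9, 32.2 and 23.8 CPM in Myf5Cre-Pcyt2 (log2 fold change 1.28, SE 0.17, adjusted p = 0.00233). Col25a1 (chr3:130131501-130599877), a chain made by muscle that motor axons need in order to innervate it, was at 1.85, 1.16 and 1.33 CPM in controls and 3.26, 3.36 and 4.07 CPM in Myf5Cre-Pcyt2 (log2 fold change 1.29, SE 0.23, adjusted p = 0.00589). They rose 2.43-fold and 2.44-fold, with every Myf5Cre-Pcyt2 library above every control. Col13a1 (chr10:61838236-61979108), which concentrates at the neuromuscular junction and is needed for its maturation, was at 5.77, 5.86 and 3.94 CPM in controls and 9.02, 7.38 and 8.22 CPM in Myf5Cre-Pcyt2 (log2 fold change 0.66, SE 0.18, adjusted p = 0.0271). Its groups were separated too, and its lowest library was control replicate 3. The call of Col13a1 was lost without control replicate 3 or without any one Myf5Cre-Pcyt2 library, whereas those of Col23a1 and Col25a1 held without any one library. Col17a1, the transmembrane collagen of hemidesmosomes in skin, ranged from 2.43 to 2.84 CPM in controls and 2.82 to 4.11 CPM in Myf5Cre-Pcyt2 (log2 fold change 0.47, SE 0.20, adjusted p = 0.131), and its ranges overlapped.

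Of the 2 tested chains of short-chain network collagens, Col8a2 rose and Col8a1 did not pass. Col8a2, a chain of the type VIII network beneath endothelium, was at 9.79, 9.11 and 9.50 CPM in controls and 12.3, 13.1 and 14.0 CPM in Myf5Cre-Pcyt2 (log2 fold change 0.47, SE 0.11, adjusted p = 0.0154), and its groups were separated. Col8a1 had a log2 fold change of -0.084 (adjusted p = 0.677), with overlapping ranges, and its sign turned under scaling by library size alone. The call of Col8a2 was lost without control replicate 2, Myf5Cre-Pcyt2 replicate 2 or Myf5Cre-Pcyt2 replicate 3. Col10a1, the chain of hypertrophic cartilage, had between 0 and 3 counts per library.

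Among the multiplexins and the remaining collagens, 2 of 5 rose, with a median of 0.40. Col26a1 (chr5:136741759-136883209), a short collagen with an EMI domain, had the smallest adjusted p of all collagen genes and was at 16.0, 15.0 and 21.1 CPM in controls and 37.6, 45.3 and 41.8 CPM in Myf5Cre-Pcyt2 (log2 fold change 1.26, SE 0.13, adjusted p = 0.00118). Its Myf5Cre-Pcyt2 libraries were all well above the highest control, which was replicate 3. Col18a1, the basement membrane multiplexin from which endostatin is released, was at 86.5, 78.7 and 64.2 CPM in controls and 89.1, 113 and 100.3 CPM in Myf5Cre-Pcyt2 (log2 fold change 0.40, SE 0.12, adjusted p = 0.0461). Col15a1, the related multiplexin around muscle fibres and capillaries, was at 579, 499.6 and 440.1 CPM in controls and 628, 656 and 595 CPM in Myf5Cre-Pcyt2 (log2 fold change 0.31, SE 0.12, adjusted p = 0.0905). Both multiplexins were separated, and Col15a1 did not pass in edgeR, although it did with DESeq2 (adjusted p = 0.0369), with library size alone and without control replicate 1. The call of Col18a1 was lost without control replicate 2 or 3 or without Myf5Cre-Pcyt2 replicate 2 or 3. Col28a1, a collagen found around Schwann cells of peripheral nerve, had a log2 fold change of 0.44 (adjusted p = 0.0742) with separated groups, and passed without a filter on low counts (0.0431) and with library size alone. Col7a1, the anchoring fibril of skin, had 0.20 (adjusted p = 0.255) with overlapping groups, and its sign turned with an offset for GC content and length.

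Of the genes that rose, 10 passed under each of 16 alternative settings, among them every omission of 1 library. They were Col12a1, Col14a1, Col16a1, Col20a1, Col22a1, Col23a1, Col25a1, Col26a1, Col27a1 and Col6a6, of which 5 are FACIT and 2 transmembrane chains. DESeq2 called 27 collagen rises, the 23 and also Col1a2, Col3a1, Col4a2 and Col15a1, and 8.03% of all genes. The log2 fold change of all 23 stayed positive in all 16. Without Myf5Cre-Pcyt2 replicate 2, 11 collagen genes rose, and 2.84% of all genes did. Without Myf5Cre-Pcyt2 replicate 3, again 11 rose, with 4.29% of all genes. The median over the 41 genes moved less than these counts did, between 0.40 and 0.51 in the 6 omissions. Scaled by library size alone, 34 collagen genes rose, but that scaling moved the median of all genes to 0.21 and raised 21.9% of them.

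Within the collagen counts, the balance between families was compared as a share of each library's collagen counts. Fibrillar chains made up 75.1% ± 0.0466 in controls and 74.7% ± 0.739 in Myf5Cre-Pcyt2 (SD, n = 3, exact permutation test, two-sided, p = 0.4). The FACIT share was 2.09%, 2.02% and 2.21% in controls and 2.53%, 2.82% and 2.79% in Myf5Cre-Pcyt2, with no overlap (exact permutation p = 0.1). The type VI share was 7.09% ± 0.143 in controls and 7.78% ± 0.253 in Myf5Cre-Pcyt2, and the transmembrane share 0.115% ± 0.0295 and 0.183% ± 0.0265 (SD, n = 3, exact permutation p = 0.1 for each). The groups did not overlap for either. The type IV share was 12.1% ± 0.410 and 11.3% ± 0.444 (exact permutation p = 0.2). Adjusted over the 7 families, the smallest value was 0.233, so none of these shares passed, and 3 against 3 libraries could not have passed even unadjusted.

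Chains that share a trimer or fibril were compared as log2 ratios within each library, which scaling does not affect. Across 8 pairs the difference between groups lay between -0.23 and 0.16. The ratio of Col4a1 to Col4a2 was lower in Myf5Cre-Pcyt2 by a log2 difference of -0.15, and that of Col6a1 to Col6a2 was higher by 0.11, each without overlap between the groups (exact permutation test, two-sided, p = 0.1, adjusted 0.4 over 8 pairs). The ratio of Col1a1 to Col1a2 differed by 0.04 (exact permutation p = 0.5), that of Col3a1 to Col1a1 by -0.02 (p = 1, exact) and that of Col6a3 to Col6a1 by 0.0055 (p = 1, exact). The remaining differences were 0.16 for Col5a1 to Col5a2, 0.08 for Col11a1 to Col5a1 and -0.23 for Col4a5 to Col4a1, with overlapping groups.

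Read per kilobase of summed exon length over both groups, the 10 most abundant collagen genes gave 4 rises and a median log2 fold change of 0.36. The next 10 gave 9 rises and a median of 0.64, and the 21 least abundant gave 10 rises and a median of 0.47. Rises were found in each of these 3 bands of level. Collagen genes were longer and richer in G and C than all tested genes, with medians of 7.62 against 4.29 kb and 55.7% against 49.8%. With an offset for GC content and length, 18 collagen genes rose, as did 7.87% of all genes, and the collagen median was 0.34. The calls that this offset ended were those of Col18a1, Col2a1, Col5a3, Col6a2 and Col6a3.

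Genes that modify, export, crosslink, bind or degrade collagen were taken from 7 lists. Of the 79 that could be tested, 27 rose, 2 fell and 50 missed the threshold, with a median of 0.22 (all tested genes: 9.02% rose, median -0.0020). In the cell, chains are hydroxylated and folded before export, and 8 of 20 such genes rose, with none lower and a median of 0.18. With replicate 2 or 3 of either group left out, 2 rose. Plod2, the lysyl hydroxylase that prepares the crosslink sites of the chain ends, was at 15.3, 15.0 and 15.6 CPM in controls and 20.98, 24.4 and 23.8 CPM in Myf5Cre-Pcyt2 (log2 fold change 0.59, SE 0.094, adjusted p = 0.00414). Fkbp10, a chaperone that works with it, was at 44.8, 40.7 and 38.2 CPM in controls and 52.9, 56.7 and 58.9 CPM in Myf5Cre-Pcyt2 (log2 fold change 0.45, SE 0.09, adjusted p = 0.00966). P3h1, a prolyl 3-hydroxylase, was at 32.0, 28.4 and 29.5 CPM in controls and 35.6, 41.0 and 38.9 CPM in Myf5Cre-Pcyt2 (log2 fold change 0.36, SE 0.089, adjusted p = 0.0204). All 3 were separated between the groups. Serpinh1, the collagen chaperone HSP47, chosen after its values were seen, was at 409.8, 419 and 430.4 CPM in controls and 369.9, 427 and 364 CPM in Myf5Cre-Pcyt2 (log2 fold change -0.12, SE 0.10, adjusted p = 0.43), with overlapping groups.

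Secretion and processing gave 3 rises and 1 fall among 12 tested genes, with 0 rises without Myf5Cre-Pcyt2 replicate 2, 1 without control replicate 2 or Myf5Cre-Pcyt2 replicate 3 and 2 without control replicate 3. Adamts14, which removes amino-terminal propeptides, was at 5.98, 5.97 and 6.78 CPM in controls and 8.44, 10.7 and 10.5 CPM in Myf5Cre-Pcyt2 (log2 fold change 0.66, SE 0.14, adjusted p = 0.0119). Sec24d, a coat protein of the vesicles that export procollagen, was at 34.8, 32.5 and 33.9 CPM in controls and 42.6, 46.3 and 42.5 CPM in Myf5Cre-Pcyt2 (log2 fold change 0.38, SE 0.082, adjusted p = 0.0126). Pcolce2, an enhancer of carboxy-terminal propeptide removal, was the gene that fell, at 11.7, 11.6 and 9.44 CPM in controls and 7.05, 7.03 and 8.04 CPM in Myf5Cre-Pcyt2 (log2 fold change -0.57, SE 0.13, adjusted p = 0.0169). Adamts14 and Sec24d were higher and Pcolce2 lower in every Myf5Cre-Pcyt2 library than in any control.

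Among the 5 lysyl oxidases, which crosslink collagen outside the cell, 3 rose, and Loxl2 alone did so without control replicate 2 or 3 or Myf5Cre-Pcyt2 replicate 2 or 3. Loxl2 was at 70.3, 75.4 and 69.4 CPM in controls and 104, 96.4 and 96.2 CPM in Myf5Cre-Pcyt2 (log2 fold change 0.46, SE 0.081, adjusted p = 0.00575). Loxl3 was at 11.5, 10.6 and 10.3 CPM in controls and 12.7, 16.8 and 15.1 CPM in Myf5Cre-Pcyt2 (log2 fold change 0.46, SE 0.12, adjusted p = 0.0273). Loxl1 was at 72.1, 56.2 and 52.7 CPM in controls and 72.6, 83.6 and 78.7 CPM in Myf5Cre-Pcyt2 (log2 fold change 0.38, SE 0.12, adjusted p = 0.0483). The groups did not overlap in these 3, although Loxl1 in control replicate 1 nearly reached the lowest Myf5Cre-Pcyt2 library. Proteins that bind fibrils and regulate them gave 5 rises among 12. Thbs2, a matricellular protein that affects fibril shape, was at 99.3, 90.3 and 77.4 CPM in controls and 132, 145 and 145 CPM in Myf5Cre-Pcyt2 (log2 fold change 0.66, SE 0.10, adjusted p = 0.00414). Ogn, a small leucine-rich proteoglycan, was at 80.9, 90.6 and 116 CPM in controls and 165, 156 and 177 CPM in Myf5Cre-Pcyt2 (log2 fold change 0.80, SE 0.13, adjusted p = 0.00417). Fn1, the fibronectin on which collagen fibrils assemble, was at 312, 255 and 231 CPM in controls and 363, 540.2 and 456 CPM in Myf5Cre-Pcyt2 (log2 fold change 0.77, SE 0.15, adjusted p = 0.00956). All 3 were separated.

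Degradation gave 4 rises and 1 fall among 8 tested genes, with 2 rises without control replicate 2 or Myf5Cre-Pcyt2 replicate 2 or 3. Mmp2, the gelatinase, was at 158, 139.7 and 127 CPM in controls and 202, 217 and 206 CPM in Myf5Cre-Pcyt2 (log2 fold change 0.56, SE 0.10, adjusted p = 0.00576). Ctsk, a cathepsin that cleaves the triple helix, was at 19.6, 20.5 and 22.9 CPM in controls and 27.1, 31.8 and 29.6 CPM in Myf5Cre-Pcyt2 (log2 fold change 0.49, SE 0.10, adjusted p = 0.00889). Mrc2, the endocytic receptor for collagen fragments, was at 51.5, 45.8 and 43.7 CPM in controls and 57.2, 69.3 and 65.7 CPM in Myf5Cre-Pcyt2 (log2 fold change 0.45, SE 0.10, adjusted p = 0.014). These 3 were separated, in the same direction as the chains. Mmp9, named because it was the single fall, was at 3.81, 3.25 and 1.16 CPM in controls and 1.28, 1.05 and 0.739 CPM in Myf5Cre-Pcyt2 (log2 fold change -1.43, SE 0.40, adjusted p = 0.0327), with overlapping groups because control replicate 3 lay within the Myf5Cre-Pcyt2 range.

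Of 10 collagen receptors 2 rose. Cspg4, a proteoglycan that binds type VI collagen, was at 46.2, 44.6 and 38.6 CPM in controls and 50.6, 66.5 and 57.1 CPM in Myf5Cre-Pcyt2 (log2 fold change 0.43, SE 0.11, adjusted p = 0.0264). Ddr1, a receptor kinase, was at 45.9, 37.4 and 46.3 CPM in controls and 50.4, 59.3 and 55.9 CPM in Myf5Cre-Pcyt2 (log2 fold change 0.35, SE 0.11, adjusted p = 0.0406). Neither overlapped between the groups, and no receptor rose without control replicate 2 or Myf5Cre-Pcyt2 replicate 2 or 3. Of 12 genes of transcriptional control and TGF-beta signalling 2 rose. Scx, the tendon transcription factor, was at 12.8, 9.69 and 12.98 CPM in controls and 16.9, 20.96 and 18.3 CPM in Myf5Cre-Pcyt2 (log2 fold change 0.66, SE 0.13, adjusted p = 0.00921). Tgfbr1, a TGF-beta receptor, was at 49.7, 46.2 and 49.5 CPM in controls and 62.6, 58.1 and 60.0 CPM in Myf5Cre-Pcyt2 (log2 fold change 0.31, SE 0.08, adjusted p = 0.0225). Both were separated, and Scx alone rose without control replicate 2 or Myf5Cre-Pcyt2 replicate 2 or 3. Leaving out 1 library gave between 10 rises, without Myf5Cre-Pcyt2 replicate 2, and 29 over these 7 lists. Without Myf5Cre-Pcyt2 replicate 3 or control replicate 2 the lists gave 11, and without control replicate 3 they gave 15. Of the genes named here, Plod2, Fkbp10, Loxl2, Thbs2, Ogn, Fn1, Mmp2, Ctsk and Scx passed without any one library. Both falls were lost without control replicate 2 and without Myf5Cre-Pcyt2 replicate 2, and that of Mmp9 also without control replicate 1 or Myf5Cre-Pcyt2 replicate 3. Each of the other named rises was lost without Myf5Cre-Pcyt2 replicate 2 and also without at least 1 further library.

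**Figure D3:**
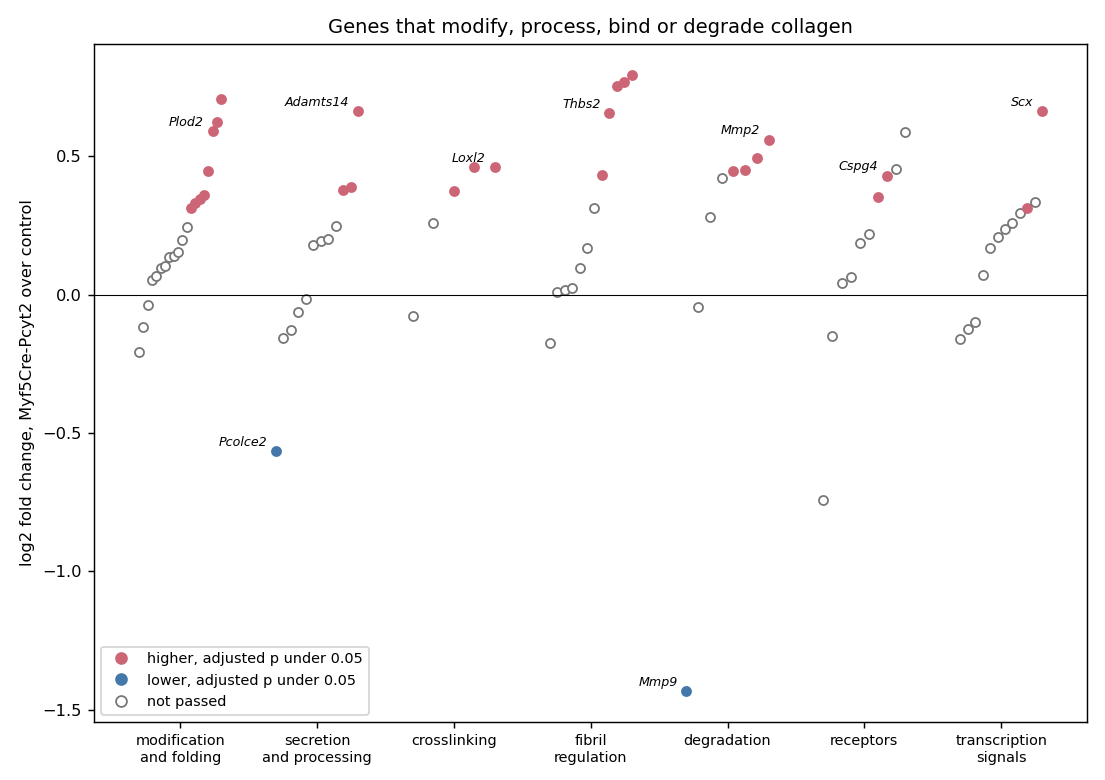
Log2 fold change, Myf5Cre-Pcyt2 over control (n = 3 each), of the 79 tested genes of 7 collagen pathway lists, sorted within each list. Filled points passed the test (27 higher, 2 lower), and labels name the gene with the smallest p in each list and the genes that fell.

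Markers of the cell types that make collagen were summed in each library. The fibroblast list summed to between 497 and 516 CPM in controls and between 515 and 549.9 CPM in Myf5Cre-Pcyt2, so that the groups overlapped narrowly. Cd34, with means of 234 and 238 CPM, was its largest part. The sum over all collagen chain genes did not overlap, although that of the network family did (22.9 to 26.7 against 24.9 to 29.2 CPM). In the fibroblast list 2 genes, Pdgfra and Osr1, were separated above the controls and 2, Lsp1 and Ly6a, below them. Of the 9 tested fibroblast genes 1 rose, Pdgfra (log2 fold change 0.54, SE 0.078, adjusted p = 0.00323), and 1 fell, Lsp1 (log2 fold change -0.77, SE 0.092, adjusted p = 0.0017), while Tcf21 was at 0 in every library. Over all tested genes, 19.9% were separated above and 19.2% below, 9.02% rose and 9.59% fell. The fibroblast counts were near these shares. The tenocyte list gave 2 rises of 6, Scx and Tnmd (log2 fold change 0.42, SE 0.10, adjusted p = 0.0158), and sums of 485 to 702 against 605 to 711 CPM, which overlapped, and Tnmd was lost without Myf5Cre-Pcyt2 replicate 2 or 3. The cartilage and bone list, read beside Col2a1, Col9a3 and Col11a1, gave no call among 4 tested genes and overlapping sums of 21.9 to 37.2 against 23.3 to 31.7 CPM. Its largest part was Comp (log2 fold change -0.19, adjusted p = 0.604). Acan, a cartilage gene, had the single positive value, 0.74 (SE 0.28, adjusted p = 0.0897), with overlapping groups. The other tested genes were negative, down to -0.33. In bulk muscle, a change in the number of cells of a type and a change in RNA per cell cannot be told apart.

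The Schwann cell list moved with the collagens. Of its 6 genes 5 rose, all 6 were separated, and the sum lay between 319 and 384 CPM in controls and between 468 and 651 CPM in Myf5Cre-Pcyt2. Without control replicate 2 or Myf5Cre-Pcyt2 replicate 2, 3 of the 5 calls held. Those of Erbb3 and Mbp were lost, and that of Mbp was also lost without control replicate 3. The part of the Schwann cell list in the collagen values, that of Col28a1 among them, was not tested. The sum of the skeletal muscle list moved the other way, from 90152 to 114739 CPM in controls against 62568 to 69669.8 CPM, with no overlap. Its largest part was Acta1, with means of 49714 CPM in controls and 32819 CPM in Myf5Cre-Pcyt2. Acta1 was separated but did not pass (log2 fold change -0.60, SE 0.21, adjusted p = 0.0699). Of the 7 genes of the list 2 fell, Ckm (log2 fold change -0.94, SE 0.20, adjusted p = 0.0123) and Mylpf (log2 fold change -0.67, SE 0.18, adjusted p = 0.0292), and 1 rose, Myod1 (log2 fold change 0.27, SE 0.082, adjusted p = 0.0462). The list median was -0.13, with Des at -0.13, and 3 of the 7 values were positive, among them Ttn (0.20) and Myog (0.19). The call of Ckm was lost without Myf5Cre-Pcyt2 replicate 2 or 3, that of Mylpf also without control replicate 2 or 3, and that of Myod1 whichever library was left out. The part of the lower Acta1, Ckm and Mylpf levels in the collagen rises was not tested. Endothelial markers gave 0 rises and 1 fall of 6 (683 to 856 against 717 to 811 CPM). The fall, in Emcn, was lost in 5 of the 6 omissions of 1 library and held without control replicate 3. Mural (1167 to 1469.9 against 1130 to 1153 CPM), macrophage (113 to 136 against 136 to 155 CPM), adipocyte (17.8 to 193 against 47.5 to 67.3 CPM) and keratinocyte markers (4.64 to 6.62 against 5.02 to 5.50 CPM) gave no call among 5, 5, 4 and 1 tested genes, with Krt5 at 0 in every library. Of these sums only that of the mural list was separated, below the controls.

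**Figure D4:**
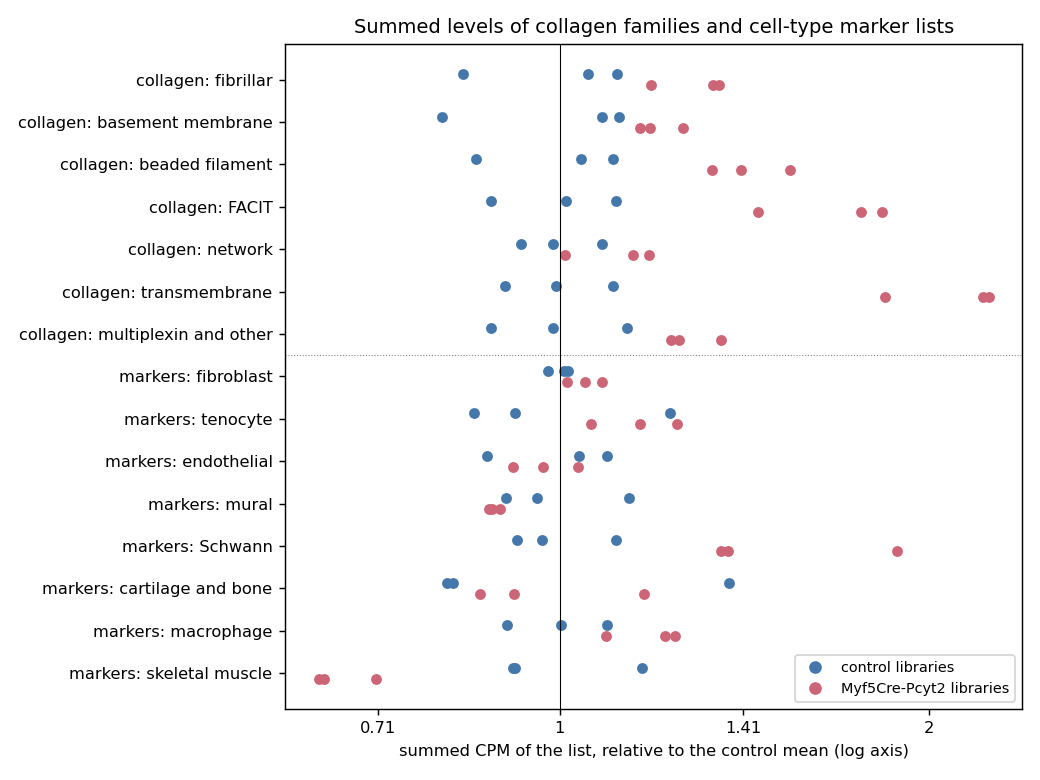
Summed CPM of each collagen family (above the dotted line) and of marker lists (below it) in every library, divided by the control mean. The axis is logarithmic, and the adipocyte and keratinocyte lists are not drawn. FACIT and transmembrane chains lie farthest above the controls, the fibroblast markers overlap between groups, Schwann cell markers lie above the controls and skeletal muscle markers below them.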

How the data were processed

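The authors deposited featureCounts counts per Ensembl gene. Trim Galore 0.5.0, Bowtie2 2.3.4.1 and Subread 1.6.2 on GRCm38/mm10 are listed, without roles, per the submitters' processing notes. Annotation release, strand setting and treatment of multimapping reads: not given in the sources used here. Paralogous and overlapping genes therefore have uncertain counts. Symbols and positions came from GENCODE M21 (GRCm38), which named 54495 of 54532 identifiers.

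Counts were filtered with filterByExpr, scaled by TMM and compared with edgeR 4.0.16 (R 4.3.3), all 6 libraries, group only, two-sided, with Benjamini-Hochberg adjustment over 14715 genes and a threshold of 0.05. The scripts were tested on simulated data. SE was derived as the absolute log2 fold change divided by the square root of the test's F statistic. The 95% intervals were built from this SE with a t quantile. Single values were compared by exact permutation. The alternatives tried were library size alone, DESeq2 size factors, DESeq2 1.42.0, limma-voom (limma 3.58.1), 2 other filters, a replicate block, a GC content and length offset, both together, a sex covariate and omission of each library.

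Values in every library are given for each collagen gene past the threshold, for chains of types I, III, IV, V and VI and for Col12a1, Col13a1, Col14a1, Col15a1, Col22a1 and Col25a1, and from each pathway list for up to 3 genes with the smallest p. The members and lists were chosen with earlier results of these data known. Litters are not labelled, and p-values rest on the spread among these 6 libraries. By sex, replicate 3 of each group came from another pup than replicates 1 and 2. The labels do not say whether replicates 1 and 2 of a group are separate pups, so the spread between them may be technical. The difference between 2 libraries was measured as a mean chi-square per gene. Between replicates 1 and 2 it was 22.8 in controls and 23.7 in Myf5Cre-Pcyt2. Replicates 1 and 2 against replicate 3 gave 17.3 and 34.1 in controls and 12 and 14.9 in Myf5Cre-Pcyt2. Whether the spread is technical was not tested.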

Additional observations from a re-analysis of the deposited data

How the results depend on the processing

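The 23 collagen rises numbered 12 under a replicate block combined with a GC content and length offset, and 11 to 23 when 1 library was left out. The replicate block by itself gave 19, and it changed no direction among the 23. Over all genes the rises were 4.45% with block and offset and 5.88% with the block, against 9.02%. DESeq2 gave 27 collagen rises, adding Col1a2, Col3a1, Col4a2 and Col15a1. The labels do not say that replicate numbers pair pups, so same-numbered libraries were not treated as pairs. Their deviations from the group means correlated at -0.11, -0.17 and 0.018, and those of other pairs at -0.063 to 0.16. Deviations from a group mean cancel within the group, so these values cannot exclude pairing. Collagen falls, 0 of 41, numbered 1 (Col24a1) without a filter on low counts and 0 to 1 when 1 library was left out. At an unadjusted p under 0.05 the falls numbered 1, again Col24a1, and DESeq2 and limma-voom called 0. The 27 rises in the pathway lists became 48 with library size alone, 16 under the replicate block (modification and folding 3), 12 with block and offset, and 10 to 29 when 1 library was left out, and the 2 falls became 1 with library size alone, 1 with limma-voom, and 0 to 3 when 1 library was left out. Over all genes, 21.9% rose with library size alone, and between 2.84% and 8.93% did when 1 library was left out. Uncalled values changed sign under single settings. With library size alone they were 0.076 in Col4a3, 0.21 in Col4a5 and 0.14 in Col8a1. With the offset they were -0.083 in Col4a6 and -0.077 in Col7a1, and with block and offset -0.055 and -0.085. Over omissions of 1 library they ranged from -0.32 to 0.079 in Col4a3, -0.081 to 0.060 in Col4a5, -0.20 to 0.26 in Col4a6 and -0.17 to 0.038 in Col8a1. Log2 ratio differences ranged likewise from -0.0088 to 0.10 for Col1a1 to Col1a2, -0.11 to 0.14 for Col3a1 to Col1a1, -0.025 to 0.039 for Col6a3 to Col6a1 and -0.055 to 0.21 for Col11a1 to Col5a1. The causes were not tested. Col6a5 and Col4a6 reached at most 3.23 and 1.54 CPM, and their 95% intervals of -0.28 to 1.11 and -0.60 to 0.68 exclude neither 0 nor the collagen median of 0.47.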
